A study of Mus musculus with 8 samples.

Results

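The genes described here encode the nuclear subunits of respiratory complexes II, III, IV and V, together with cytochrome c. They were chosen by name: protein-coding genes called Sdha, Sdhb, Sdhc, Sdhd, Cyc1 or Cycs, or with a symbol that starts with Uqcr, Cox4i, Cox5, Cox6, Cox7, Cox8 or Atp5. This gave 50 of the 55487 genes in the table, with 4 in complex II, 9 in complex III, 1 for cytochrome c, 18 in complex IV and 18 in complex V. Another 8 rows with such symbols were pseudogenes and were left out. They held 25 to 777 counts each, and values of the genes they copy (Uqcrh, Cox6c, Atp5c1, Atp5k and Atp5l) are uncertain to the extent that reads match both. Expression was measured by poly(A) RNA sequencing of whole heart from db/db mice, 4 libraries from mice given the compound that the labels call DIZE and 4 from mice given vehicle. The db/db mouse lacks a working leptin receptor and is obese and diabetic, so both groups carry that mutation, and there was no lean or untreated control. The labels give no dose, duration, age or sex. Nothing in the labels says that the libraries came from separate animals, so the p-values measure only the spread between these libraries.

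Complex II (succinate dehydrogenase) passes electrons from succinate to ubiquinone, complex III passes them on to cytochrome c, and complex IV (cytochrome c oxidase) passes them from cytochrome c to oxygen. Complexes III and IV pump protons, and complex V (ATP synthase) lets them flow back to make ATP. The adult heart makes most of its ATP this way, and its muscle cells are packed with mitochondria. Complex II is encoded by nuclear genes alone, whereas complexes III, IV and V also contain subunits made from mitochondrial DNA. Promoters of these nuclear genes are known for binding sites of NRF1, of the ETS factor GABP and of the oestrogen-related receptors (ERR).

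The promoter sequences of 3 members are shown because these genes had the smallest unadjusted p of complexes III, IV and V among the members with a promoter window, and because their letters differ. They are RefSeq windows on GRCm38.p6, from 250 bases before to 50 bases after the start of the gene, given 5′ to 3′ on the strand of the gene. Capitals mark matches, on either strand, to the NRF1 motif GCGCANGCG, to the ERR core AAGGTCA or to the GABP/ETS core CCGGAAG. Uqcrc1 lies at chr9:108936398-108936697 on the plus strand, Atp5k at chr5:108434350-108434649 on the minus strand, and Cox7a1 at chr7:30183921-30184220 on the plus strand.
Uqcrc1: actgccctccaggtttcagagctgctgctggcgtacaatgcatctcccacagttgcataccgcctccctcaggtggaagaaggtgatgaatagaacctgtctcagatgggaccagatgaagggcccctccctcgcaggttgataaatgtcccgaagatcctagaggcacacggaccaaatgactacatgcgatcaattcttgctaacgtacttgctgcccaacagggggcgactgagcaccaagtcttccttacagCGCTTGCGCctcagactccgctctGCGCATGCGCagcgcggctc
Atp5k: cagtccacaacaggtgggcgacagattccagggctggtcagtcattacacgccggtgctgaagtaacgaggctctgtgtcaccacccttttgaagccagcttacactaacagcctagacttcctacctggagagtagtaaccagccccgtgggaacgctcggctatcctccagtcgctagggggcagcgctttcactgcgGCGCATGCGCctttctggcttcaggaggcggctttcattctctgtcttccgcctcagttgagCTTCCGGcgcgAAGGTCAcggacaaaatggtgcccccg
Cox7a1: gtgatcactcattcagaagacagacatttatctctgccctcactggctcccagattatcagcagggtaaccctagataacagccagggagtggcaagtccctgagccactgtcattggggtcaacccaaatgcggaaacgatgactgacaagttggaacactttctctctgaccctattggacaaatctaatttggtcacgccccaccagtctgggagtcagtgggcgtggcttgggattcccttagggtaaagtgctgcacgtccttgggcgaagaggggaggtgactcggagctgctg
Uqcrc1 held NRF1 matches at 2 places close to the 3′ end of its window, Atp5k held 1 each of the NRF1, GABP/ETS and ERR core letters, and Cox7a1 held none of them.

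Among the 37 members with a window, 13 held the NRF1 letters, which is 35.1%, against 7.03% of 27025 genes with a window. The GABP/ETS core was in 12 members, or 32.4%, against 9.93% of all genes. The ERR core was in 5 members, or 13.5%, against 5.38%, and the extended ERR half-site TCAAGGTCA, which contains the core, was in Sdhd and Atp5g3 only, or 5.41%, against 0.466%. The YY1 core AAGATGGC was in Atp5f1, Atp5j and Atp5j2, or 8.11%, against 3.19%. All motifs were searched on both strands, and the NRF1 letters can match both strands at 1 place because they are almost their own reverse complement. In complex IV, Cox6a1 was the only member of 13 whose window held the NRF1 letters. A match is a run of letters and not evidence of binding. Members without a window were Sdhc, Cyc1, Uqcrb, Uqcrc2, Uqcrq, Cox4i1, Cox4i2, Cox6a2, Cox6c, Cox8c, Atp5a1, Atp5mpl and a second Atp5o row.

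The 8 libraries held between 7447664 and 10161623 counts. All 10 cardiomyocyte markers listed for this work were detected, with summed levels of 54421 to 63045 CPM (counts scaled to a fixed library size, with TMM factors) in DIZE libraries and 36506 to 60112 CPM in vehicle libraries. Vehicle library 1 was the lowest of these. It also held the highest summed level of 4 atrial markers, 810 CPM, against 13.6 to 130 CPM in DIZE libraries and 35.3 to 314 CPM in the other vehicle libraries. Vehicle library 2 held 1549 CPM of 4 liver markers, mostly Alb, against 0.395 to 2.69 CPM in DIZE libraries and 0.536 to 7.16 CPM in the other vehicle libraries. Erythroid markers summed to 8.95 to 78.4 CPM in DIZE libraries and 101 to 210 CPM in vehicle libraries, without overlap, while the sums of fibroblast, endothelial, smooth muscle, macrophage, skeletal muscle and brown adipocyte markers overlapped between the groups. Gene by gene, 9 of 10 cardiomyocyte markers were higher with DIZE. Lower with DIZE were 7 of 8 fibroblast, 5 of 7 endothelial, 5 of 6 tested smooth muscle and 6 of 7 macrophage markers. In each of these lists 0 genes passed the edgeR test used below. The part of these differences in the results below was not tested. In RNA of whole heart, fewer cells of a type and less RNA per cell cannot be told apart.

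With DIZE set against vehicle, no member passed the test. The call was made with edgeR's quasi-likelihood test at an adjusted p under 0.05, which 0.0366% of the 13648 tested genes passed (5 genes). Of the 50 members, 47 had enough counts to be tested, and 0 of these were called by edgeR. DESeq2 called 4.44% of the tested genes and 0 members, and limma-voom called 0 members too. At an unadjusted p under 0.05, edgeR had 3 members of 47, or 6.38%, against 19.4% of all tested genes. The groups did not overlap for 1 member, Uqcrc1, or 2.13%, against 12.4% of all tested genes. Both member shares lay below the background.

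The differences were small. The median log2 fold change (DIZE over vehicle) of the 47 tested members was -0.05, with 20 members above 0 and 27 below, while that of all tested genes was -0.01. The median size of the log2 fold change, whatever its sign, was 0.11 for the members and 0.20 for all tested genes, with median standard errors of 0.11 and 0.17. For 44 of the 47 members the 95% interval of the fold change lay within 1.5-fold in either direction, and the exceptions were Uqcrc1, Cox4i2 and Cox6b2. A change beyond 1.5-fold lay outside the interval for those 44 genes, and the interval of 1 member lay within 1.2-fold.

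**Figure D1:**
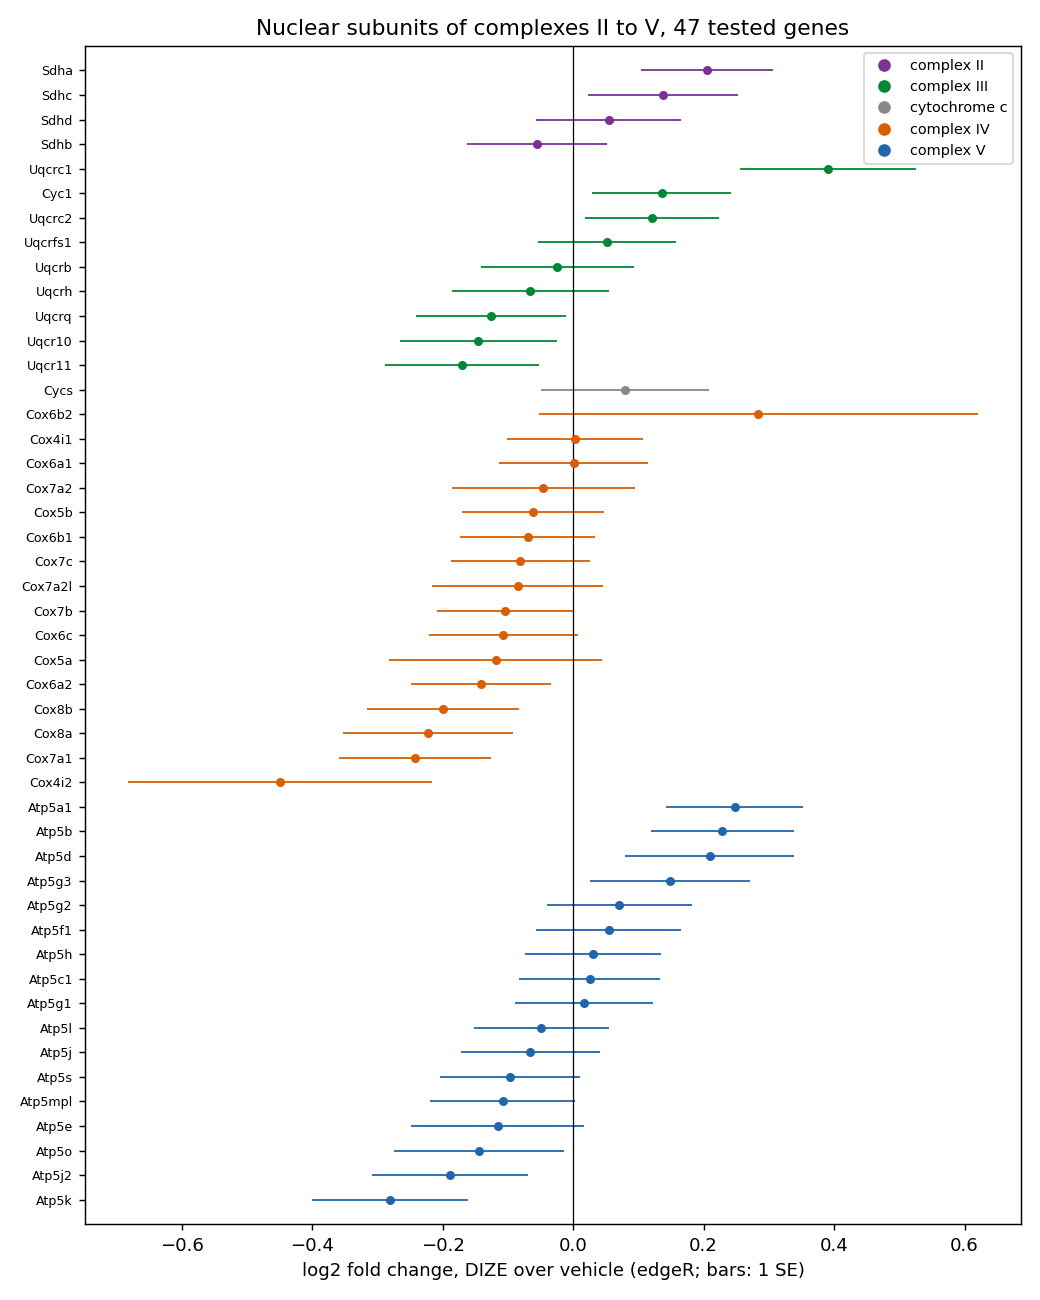
Log2 fold change of DIZE over vehicle for each of the 47 tested members (x axis, edgeR), with bars of 1 SE, grouped and coloured by complex from II at the top to V at the bottom. The values run from -0.45 for Cox4i2 to 0.39 for Uqcrc1, and in complex IV 13 of 16 lie below 0.

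The complexes differed in how many of their members lay on each side of 0. In complex II 3 of 4 members were above 0, with a median log2 fold change of 0.10. In complex III 4 of 9 were above 0 and the median was -0.02, and in complex V 9 of 17 were above 0 and the median was 0.02. In complex IV 3 of 16 were above 0 and the median was -0.09. The medians of complexes III and V had no stable sign. With each library left out in turn, that of complex III ran from -0.077 to 0.034 and that of complex V from -0.030 to 0.068, and with scaling to library totals they were -0.096 and -0.050. The median of complex IV ran from -0.14 to -0.046 with each library left out. It was -0.010 once a trend on GC content and length over all genes was removed. These counts and medians are descriptions, and differences between complexes were not tested.

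Complex II has a flavoprotein subunit (Sdha) that oxidises succinate, an iron-sulphur subunit (Sdhb) that carries the electrons, and 2 membrane anchors (Sdhc and Sdhd). Sdha, which made up 54.4% of the complex's summed CPM in DIZE libraries and 51.3% in vehicle libraries, had 2151, 2260, 2183 and 2088 CPM in the 4 DIZE libraries, against 1706, 2100, 1779 and 1944 CPM in the 4 vehicle libraries. DIZE library 4 lay just below vehicle library 2, so the groups overlapped, and the log2 fold change was 0.21 ± 0.10 (SE, edgeR adjusted p = 0.293). Sdha lies on chromosome 13 at 74322254 to 74350280 on the minus strand.

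The anchor Sdhc had 417, 454, 480 and 404 CPM in DIZE libraries, against 390, 467, 361 and 378 CPM in vehicle libraries, and its log2 fold change was 0.14 ± 0.11 (edgeR adjusted p = 0.532). Sdhb averaged 776 ± 45.5 CPM in DIZE libraries and 806 ± 80.4 CPM in vehicle libraries (SD, n = 4 each), and Sdhd averaged 604 ± 39.9 CPM in DIZE libraries and 581 ± 64.1 CPM in vehicle libraries. The ranges of the groups overlapped for all 4 subunits. Per kilobase of transcript, Sdha stood at 748 CPM per kb in DIZE libraries and Sdhb at 680, while Sdhc stood at 138. On this scale the subunits of this complex, which are assembled in equal number, were not at equal transcript level. The scale rests on the annotated length of a chosen transcript per gene, and which transcripts these hearts used was not tested.

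Complex III has 2 large core proteins (Uqcrc1 and Uqcrc2), the haem-bearing cytochrome c1 (Cyc1), the Rieske iron-sulphur protein (Uqcrfs1) and a set of small subunits. Uqcrc1 had the highest log2 fold change of all members, second in size to the negative one of Cox4i2. It stood at 1546, 1520, 1667 and 1515 CPM in DIZE libraries, against 933, 1486, 1157 and 1190 CPM in vehicle libraries. Every DIZE library lay above every vehicle library, by little in the case of vehicle library 2, and vehicle library 1 lay far below the rest. The log2 fold change was 0.39 ± 0.14 (edgeR adjusted p = 0.167), and the smallest adjusted p under any setting tried was 0.0562, in edgeR without vehicle library 2. Without vehicle library 1, the library with the lowest cardiomyocyte marker sum, the log2 fold change was 0.29 (edgeR adjusted p = 0.206). Uqcrc1 lies on chromosome 9 at 108936633 to 108949623 on the plus strand, and its promoter is the first of those printed above.

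The other core protein, Uqcrc2, averaged 1003 ± 67.4 CPM in DIZE libraries and 923 ± 69.2 CPM in vehicle libraries (SD, n = 4 each). The ratio of Uqcrc1 to Uqcrc2 within a library, in which depth and scaling cancel, was 1.62, 1.40, 1.62 and 1.61 in DIZE libraries, against 0.992, 1.47, 1.35 and 1.35 in vehicle libraries. DIZE library 2 lay below vehicle library 2, so the ratios overlapped. Uqcrc2 shares 19.7% of its exon bases with Pdzd9 on the other strand, the largest such overlap among 12 members that share 2.1% to 19.7% with a gene on the other strand. In all 12 the member had more counts than its partner, and the partner with the largest count relative to its member was Gabpa, which overlaps Atp5j and had 17.7% of its count.

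Cyc1 had 970, 947, 1080 and 938 CPM in DIZE libraries, against 837, 1022, 867 and 853 CPM in vehicle libraries. The DIZE libraries lay above 3 of the vehicle libraries, and vehicle library 2 fell among them (log2 fold change 0.14 ± 0.11, edgeR adjusted p = 0.502). The Rieske protein gene Uqcrfs1 averaged 828 ± 57.7 CPM in DIZE libraries and 799 ± 72.1 CPM in vehicle libraries (SD, n = 4 each).

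All 5 small subunits of complex III (Uqcr10, Uqcr11, Uqcrb, Uqcrh and Uqcrq) had log2 fold changes below 0 in the main fit, from -0.17 to -0.02. The other 4 members were above 0. This split did not hold in every one of the 17 other settings. Over these Uqcrb ran from -0.096 to 0.28, Uqcrh from -0.14 to 0.12 and Uqcrfs1 from -0.024 to 0.16. Uqcr11 had 320, 287, 349 and 313 CPM in DIZE libraries, against 403, 376, 342 and 305 CPM in vehicle libraries. Vehicle libraries 1 and 2 were above all DIZE libraries and vehicle libraries 3 and 4 were among them, so the groups overlapped (log2 fold change -0.17 ± 0.12, edgeR adjusted p = 0.444).

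Cytochrome c (Cycs), the small soluble carrier between complexes III and IV, had 459, 591, 501 and 449 CPM in DIZE libraries, against 524, 521, 438 and 409 CPM in vehicle libraries. DIZE library 2 was above all other libraries, vehicle libraries 3 and 4 were below all DIZE libraries, and the rest overlapped (log2 fold change 0.08 ± 0.13, edgeR adjusted p = 0.765).

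**Figure D2:**
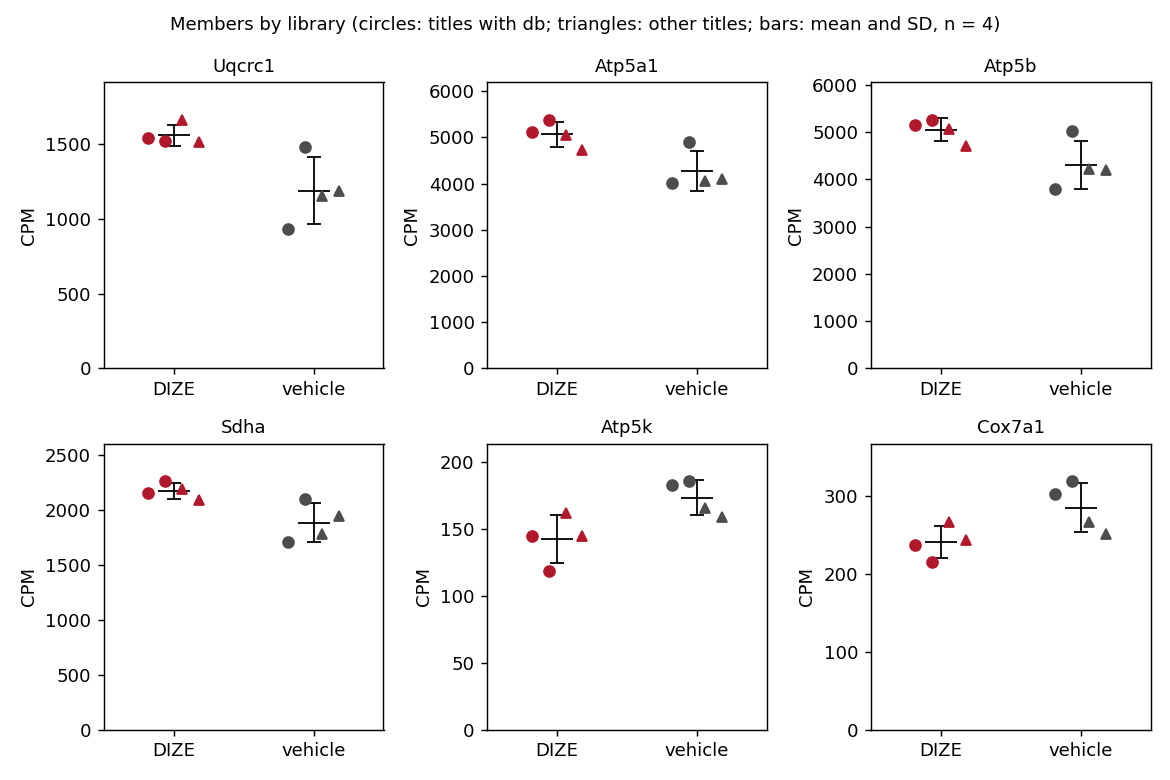
CPM per library (y axis, from 0) of Uqcrc1, Atp5a1, Atp5b, Sdha, Atp5k and Cox7a1 in DIZE libraries (left, red) and vehicle libraries (right, grey). Circles are libraries whose titles hold the letters db, triangles are the other libraries, and bars give the mean and SD of 4 libraries. Of the 6 genes only Uqcrc1 has groups that do not overlap, and vehicle library 2 is the highest vehicle library for each gene.

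In complex IV, the nuclear subunits surround a catalytic core made in the mitochondrion. Its most abundant nuclear transcript, Cox4i1, the common form of subunit 4, had 1089, 1035, 1073 and 969 CPM in DIZE libraries, against 1049, 1164, 1016 and 929 CPM in vehicle libraries. The groups lay over each other, with a log2 fold change of 0.00 ± 0.10 (edgeR adjusted p = 0.993), whose sign turned negative with scaling to library totals. Cox5a, a matrix-side subunit, averaged 228 ± 55.3 CPM in DIZE libraries and 248 ± 16.4 CPM in vehicle libraries (SD, n = 4 each), and its DIZE libraries ranged from 158 to 291 CPM. Cox5b, Cox6c, Cox7a2l, Cox7b and Cox7c had log2 fold changes between -0.11 and -0.06. Cox7a2l is known as a factor that joins complexes III and IV into supercomplexes.

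Several subunits of complex IV come in a heart and skeletal muscle form and a form found in most tissues. The heart form Cox7a1 had 237, 215, 266 and 244 CPM in DIZE libraries, against 302, 319, 267 and 251 CPM in vehicle libraries. Vehicle libraries 1 and 2 were above all others, while DIZE library 3 lay level with vehicle library 3, so the groups overlapped (log2 fold change -0.24 ± 0.12, edgeR adjusted p = 0.282). Cox7a1 lies on chromosome 7 at 30184144 to 30186078 on the plus strand. Its counterpart Cox7a2 had 271, 283, 240 and 227 CPM in DIZE libraries, against 316, 289, 226 and 222 CPM in vehicle libraries (log2 fold change -0.05 ± 0.14, edgeR adjusted p = 0.888).

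The heart form Cox6a2 had 967, 843, 968 and 934 CPM in DIZE libraries, against 993, 1161, 1022 and 919 CPM in vehicle libraries, and its log2 fold change was -0.14 ± 0.11 (edgeR adjusted p = 0.489). The counterpart Cox6a1 had 104, 90.8, 86.2 and 84.9 CPM in DIZE libraries, against 98.3, 99.3, 84.6 and 83.1 CPM in vehicle libraries, with a log2 fold change of 0.00 ± 0.11 (edgeR adjusted p = 0.997). Within each group the spread covered the other group's mean for Cox6a1, and the sign of its fold change turned negative with scaling to library totals.

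The heart form Cox8b had 189, 165, 192 and 183 CPM in DIZE libraries, against 228, 230, 202 and 178 CPM in vehicle libraries (log2 fold change -0.20 ± 0.12, edgeR adjusted p = 0.362). Cox8a, its counterpart in most tissues, had 100, 79.2, 93.8 and 92.4 CPM in DIZE libraries, against 124, 112, 103 and 87.5 CPM in vehicle libraries (log2 fold change -0.22 ± 0.13, edgeR adjusted p = 0.363). For both forms 3 of 4 vehicle libraries were above all DIZE libraries and vehicle library 4 was among them.

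Cox4i2, known as the lung and low-oxygen form of subunit 4, was, in CPM, the least abundant tested member but for Cox6b2. It had 4.15, 5.39, 8.29 and 8.0 CPM in DIZE libraries, against 9.95, 7.44, 10.3 and 7.85 CPM in vehicle libraries. DIZE libraries 1 and 2 were the lowest, and DIZE libraries 3 and 4 lay among the vehicle libraries (log2 fold change -0.45 ± 0.23, edgeR adjusted p = 0.312). It had 551 counts over all libraries.

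The common subunit Cox6b1 had 469, 467, 504 and 447 CPM in DIZE libraries, against 522, 541, 467 and 449 CPM in vehicle libraries (log2 fold change -0.07 ± 0.10, edgeR adjusted p = 0.743). Its testis form Cox6b2 had 4.52, 3.16, 4.35 and 6.53 CPM in DIZE libraries, against 2.26, 6.54, 2.82 and 3.83 CPM in vehicle libraries (log2 fold change 0.28 ± 0.34, edgeR adjusted p = 0.672). Cox7b2 had 46 counts in all and Cox8c had 0, and neither was tested. The level of Cox8c is thus below what 3 counts in a library would give.

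The balance of forms was read within each library as a ratio of CPM. Cox6a1 to Cox6a2 was 0.0987 ± 0.0101 in DIZE libraries and 0.0894 ± 0.00712 in vehicle libraries (SD, n = 4 each). Cox7a2 to Cox7a1 was 1.07 ± 0.194 in DIZE libraries and 0.921 ± 0.0878 in vehicle libraries. In both pairs the DIZE libraries with db in their titles (1 and 2) were the highest of all 8, and the groups overlapped.

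Cox8a to Cox8b was 0.501 ± 0.0219 in DIZE libraries and 0.508 ± 0.0249 in vehicle libraries (SD, n = 4 each), so this ratio moved by less than its SD. Cox4i2 to Cox4i1 was 0.00625 ± 0.0021 in DIZE libraries and 0.00862 ± 0.00165 in vehicle libraries. Cox6b2 to Cox6b1 was 0.00991 ± 0.00336 in DIZE libraries and 0.00774 ± 0.00338 in vehicle libraries. All 5 ratios overlapped between the groups. Per kilobase of transcript, the level of Cox6a1 was 0.118 of that of Cox6a2 in DIZE libraries and 0.107 in vehicle libraries. On the same scale Cox8a stood at 0.328 of Cox8b in DIZE libraries and 0.333 in vehicle libraries. Cox7a2 stood at 0.64 of Cox7a1 in DIZE libraries and 0.55 in vehicle libraries. Per kilobase of the annotated transcripts the heart forms were thus the higher ones in these pairs.

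In complex V, the catalytic head holds Atp5a1 (alpha), Atp5b (beta), Atp5c1 (gamma), Atp5d (delta) and Atp5e (epsilon). Atp5a1 had 5113, 5383, 5061 and 4720 CPM in DIZE libraries, against 4015, 4908, 4061 and 4092 CPM in vehicle libraries. Only vehicle library 2 reached into the range of the DIZE libraries, where it lay above DIZE library 4 (log2 fold change 0.25 ± 0.10, edgeR adjusted p = 0.228). Atp5b had 5164, 5268, 5063 and 4708 CPM in DIZE libraries, against 3803, 5020, 4223 and 4192 CPM in vehicle libraries. Again vehicle library 2 alone overlapped, and the log2 fold change was 0.23 ± 0.11 (edgeR adjusted p = 0.279). Atp5b lies on chromosome 10 at 128083273 to 128090391 on the plus strand.

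Atp5a1 and Atp5b were the most abundant members in CPM, and per kilobase they stood at 2051 and 2636 CPM per kb in DIZE libraries, against 1728 and 2249 in vehicle libraries. Atp5d averaged 585 ± 62.8 CPM in DIZE libraries and 506 ± 76.9 CPM in vehicle libraries (SD, n = 4 each), a log2 fold change of 0.21 ± 0.13 (edgeR adjusted p = 0.391). Atp5c1 and Atp5e had log2 fold changes of 0.03 and -0.12, so the genes of the head lay on both sides of 0.

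The ring that turns in the membrane is built of c subunits from 3 genes, Atp5g1, Atp5g2 and Atp5g3, that encode the same mature protein. Their shares of the summed CPM were 42.1 ± 1.46%, 8.13 ± 0.595% and 49.7 ± 1.98% in DIZE libraries, against 44.2 ± 0.957%, 8.21 ± 0.155% and 47.6 ± 1.11% in vehicle libraries (SD, n = 4 each). DIZE library 2 had the highest share of Atp5g3 and the lowest of Atp5g1, and all 3 shares overlapped between the groups.

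The other members of complex V belong to its stalks, membrane part and regulation. Atp5k, the small e subunit at the interface of ATP synthase dimers, had the lowest log2 fold change of complex V. It had 145, 119, 162 and 145 CPM in DIZE libraries, against 183, 186, 166 and 159 CPM in vehicle libraries. DIZE library 3 lay above vehicle library 4, and the other DIZE libraries were below all vehicle libraries (log2 fold change -0.28 ± 0.12, edgeR adjusted p = 0.229). Atp5k lies on chromosome 5 at 108433244 to 108434448 on the minus strand.

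Of the remaining genes, Atp5f1, Atp5h and Atp5j of the peripheral stalk had log2 fold changes between -0.07 and 0.05, and Atp5o, also of that stalk, had -0.14. Atp5j2 and Atp5l, of the membrane part, had -0.19 and -0.05. Atp5mpl, a small membrane protein bound to the enzyme, and Atp5s, a coupling factor, had -0.11 and -0.10. A second gene row called Atp5o had 0 counts in all libraries. It shares exon bases with the first on the same strand, 12.3% of those of the first row, and reads there may have been assigned to neither. The first row averaged 64.1 CPM in DIZE libraries and 70.8 CPM in vehicle libraries, the lowest of the peripheral stalk genes named here. Whether lost reads lowered that level was not tested.

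**Figure D3:**
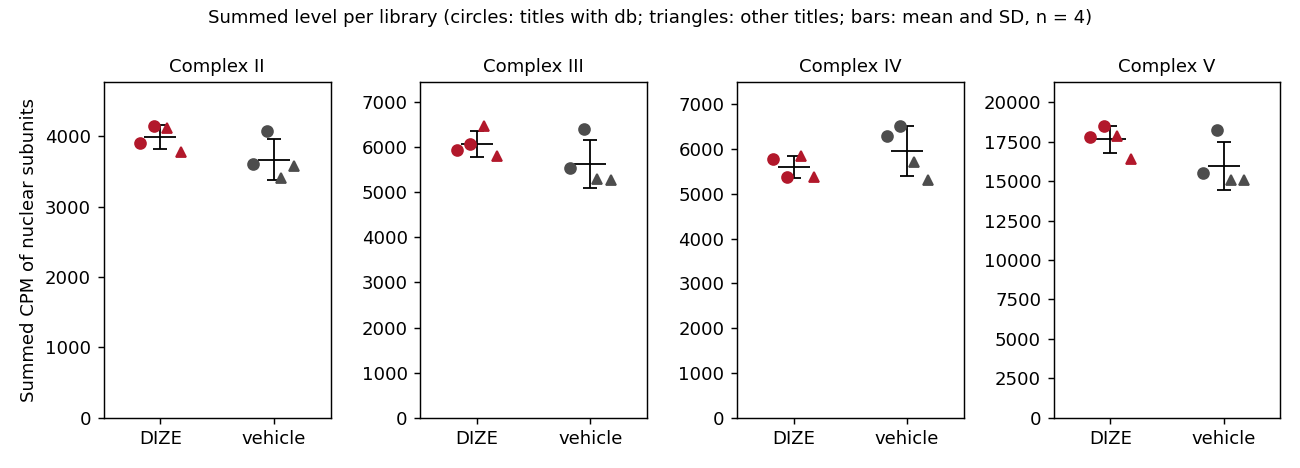
Summed CPM of the nuclear subunits of each complex in each library (y axis, from 0), DIZE libraries on the left in red and vehicle libraries on the right in grey; circles are titles with db, triangles other titles, and bars the mean and SD of 4 libraries. The groups overlap for every complex, and vehicle library 2 is the highest vehicle library in each panel.

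Summed over its members, complex II reached 3989 ± 175 CPM in DIZE libraries and 3669 ± 289 CPM in vehicle libraries, and complex III reached 6069 ± 288 CPM in DIZE libraries and 5627 ± 536 CPM in vehicle libraries (SD, n = 4 each). Complex V reached 17641 ± 867 CPM in DIZE libraries and 15962 ± 1519 CPM in vehicle libraries. Complex IV reached 5592 ± 248 CPM in DIZE libraries and 5955 ± 552 CPM in vehicle libraries. The log2 ratios of these mean sums (DIZE over vehicle) were 0.12 for complex II, 0.11 for III, -0.09 for IV and 0.14 for V, and the groups overlapped in all 4.

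The members together made up 3.38% of the CPM in DIZE libraries and 3.17% in vehicle libraries. A sum weights the most abundant genes most. Complexes III and V had a higher mean sum in DIZE libraries, while their median log2 fold changes were -0.02 and 0.02. Once the most abundant member was left out, the log2 ratio of the sums was 0.03 for complex II (without Sdha) and 0.02 for complex III (without Uqcrc1).

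Most members split the vehicle libraries the same way. Titles of libraries 1 and 2 of each group hold the letters db, and those of libraries 3 and 4 do not, and the labels do not say what this marks. In the vehicle group, 37 of 47 members, or 78.7%, were higher in both db-titled libraries than in both others, and 0 were lower in both. Of all tested genes, 16.6% were higher in both and 18.6% lower in both. In the DIZE group, 9 members (19.1%) were higher in both and 5 (10.6%) lower in both, against 24.9% and 26.2% of all tested genes. With scaling to library totals, 41 members (87.2%) were higher in both db-titled vehicle libraries, against 15.7% of all tested genes. With that scaling, 7 members (14.9%) were higher and 14 (29.8%) lower in both db-titled DIZE libraries, against 19.5% and 32.0% of all tested genes, so neither share of the DIZE group exceeded the background.

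The level of the members as a whole shows this per library. The mean log2 level relative to the 8-library mean was -0.01, -0.04, 0.06 and -0.05 in DIZE libraries 1 to 4, against 0.07, 0.17, -0.08 and -0.11 in vehicle libraries 1 to 4. The DIZE libraries all lay between the db-titled and the other vehicle libraries.

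The median difference between DIZE and vehicle had another sign in each kind of title, a comparison chosen after the data were seen. Among db-titled libraries (2 against 2), 10 members were higher with DIZE and 37 lower, with a median log2 difference of -0.13. Among the other libraries (2 against 2), 37 were higher and 10 lower, with a median of 0.07. For complex IV, 0 of 16 were higher among db-titled libraries (median -0.21) and 9 of 16 among the others (median 0.02), and for complex III 3 of 9 and 9 of 9 were higher.

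The interaction of treatment with title form, fitted in edgeR across all genes, gave an adjusted p under 0.05 for 0 members and for 0% of all tested genes, and the lowest adjusted p of a member was 0.528. At an unadjusted p under 0.05 it had 3 members of 47, or 6.38%, against 8.84% of all tested genes. The interaction coefficient (db-titled minus other) was below 0 for 45 of 47 members, with a median of -0.23, and for 6564 of all 13648 tested genes, with a median of 0.02. Members share the same 8 libraries and are not independent, so this count is a description. Uqcrc1 had log2 differences of 0.38 among db-titled libraries and 0.44 among the others, and Atp5a1 had 0.24 among db-titled libraries and 0.26 among the others. Atp5k had -0.49 among db-titled libraries and -0.08 among the others.

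**Figure D4:**
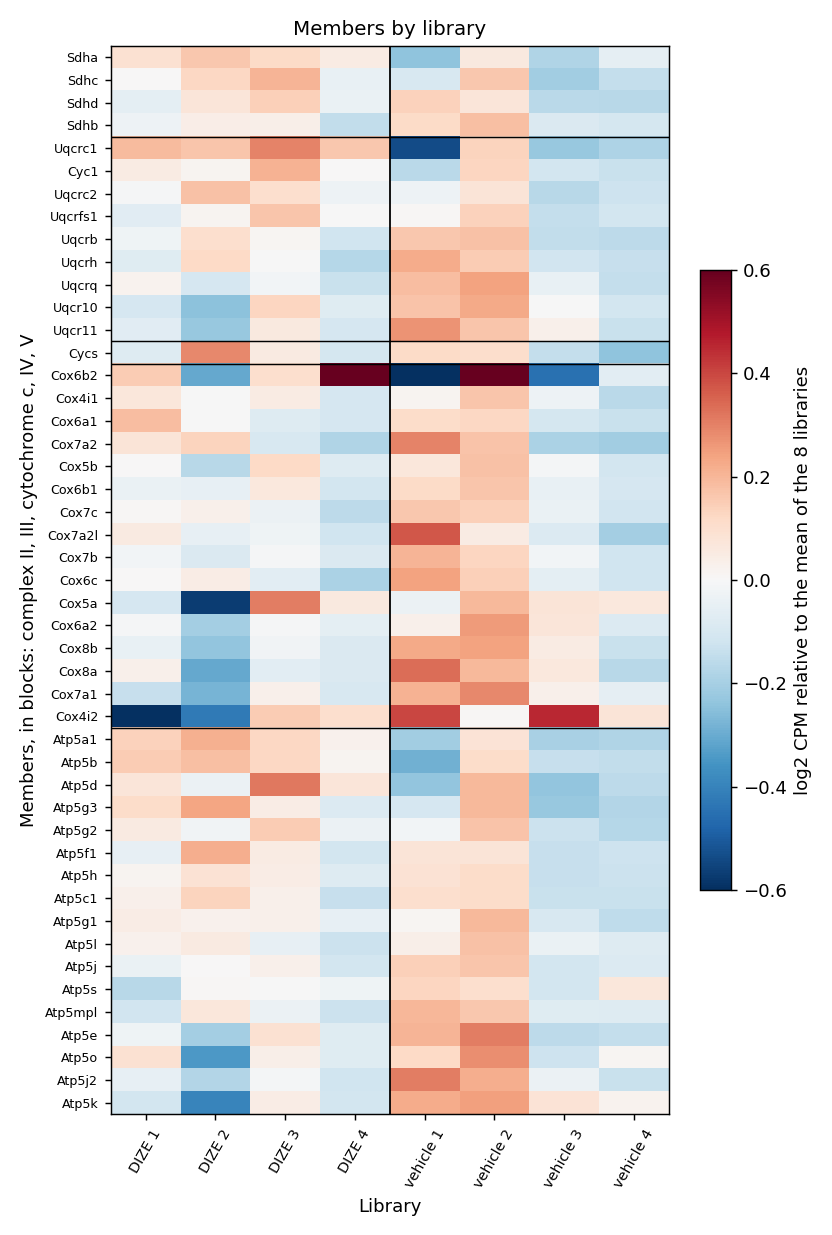
Log2 CPM of each tested member (rows, in blocks by complex) relative to its mean over the 8 libraries (columns, DIZE on the left and vehicle on the right); red is above the mean, blue is below, and colours saturate at the ends of the scale. Vehicle libraries 1 and 2 are red for most rows and vehicle libraries 3 and 4 blue, with mean values of 0.07, 0.17, -0.08 and -0.11.

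Members with longer transcripts had higher log2 fold changes. Across the 47 tested members, the Spearman correlation between the log2 fold change and the transcript length was 0.61 (Pearson 0.60), while across 13638 tested genes with a length it was -0.00. These points share the same libraries and genes are not independent replicates. Among members of 1000 nt or more, 12 of 16 were above 0, with a median of 0.07, and among shorter members 8 of 31 were above 0, with a median of -0.08. Of all tested genes under 1000 nt, 29.3% were above 0 with a median of -0.12, and of those of 1000 nt or more 50.5% with a median of 0.00.

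The same order held within complexes III (Spearman 0.87, n = 9) and V (0.48, n = 17), and was weak in complex IV (0.21, n = 16), where 14 of the tested members are shorter than 1000 nt. The correlation over all members ranged from 0.55 to 0.63 when each library was left out in turn, and was 0.44 after a trend on GC content and length over all genes was removed. Some of the longer members, Atp5a1, Atp5b and Sdha, were also the most abundant ones in CPM, while Sdhc and Cycs, longer still, were not. The log2 fold change had a Spearman correlation of 0.58 with the mean CPM. With GC content it was -0.17 among members and 0.39 among all tested genes. After the trend on GC content and length was removed, it was -0.64 among members and -0.02 among all tested genes. That setting thus left the members with a stronger relation to GC content than the main fit. The part of length, abundance and GC content in the fold changes was not tested apart.

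**Figure D5:**
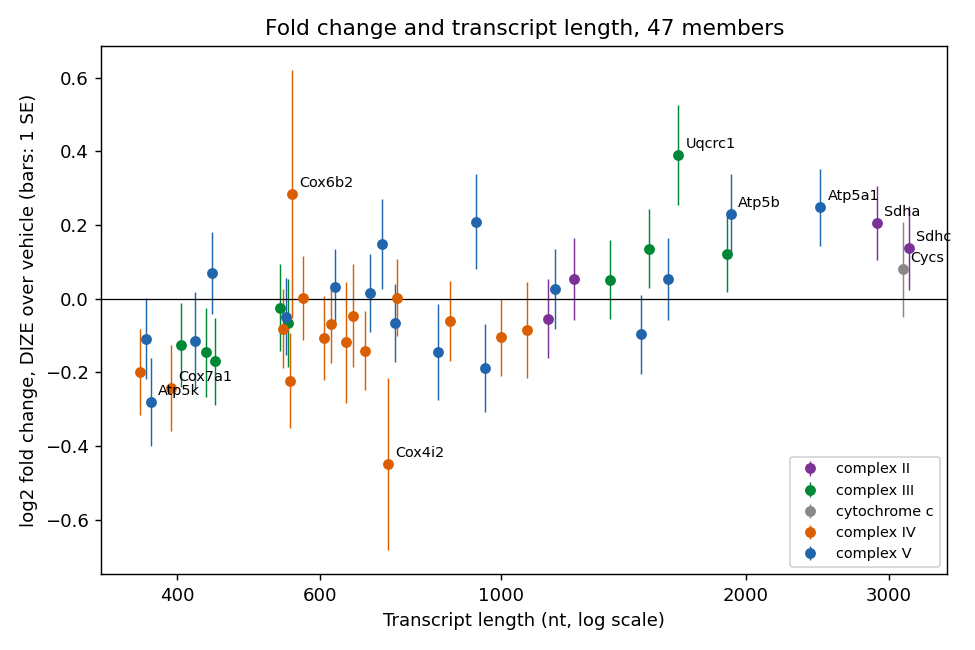
Log2 fold change of DIZE over vehicle (y axis, bars of 1 SE) against transcript length (x axis, nt, log scale) for the 47 tested members, coloured by complex. The shortest members lie mostly below 0, and Uqcrc1, Atp5b, Atp5a1, Sdha, Sdhc and Cycs lie above 0 at the long end.

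The assembly factors, which build the complexes, were counted from a list. For complex V the list also holds Usmg5, a small membrane protein of ATP synthase itself. With edgeR 0 of 4 tested factors of complex II were called, 0 of 6 of complex III, 0 of 25 of complex IV and 0 of 6 of complex V. At an unadjusted p under 0.05 edgeR had 1 factor of complex III and 3 of complex IV, against 19.4% of all tested genes. DESeq2 called Ttc19 and Cox10, against 4.44% of all tested genes. The groups did not overlap for 1 tested factor of complex II, 1 of complex III, 3 of complex IV and 0 of complex V. The share over all tested genes was 12.4%. The median log2 fold changes of the factors of complexes II, III, IV and V were -0.15, 0.08, 0.01 and 0.05. Cox10, which makes the haem A precursor for complex IV, had 122, 117, 128 and 129 CPM in DIZE libraries, against 56.4, 96.8, 85.3 and 89.1 CPM in vehicle libraries. All DIZE libraries lay above all vehicle libraries, and the log2 fold change was 0.60 ± 0.15 (adjusted p = 0.105 in edgeR and 0.0179 in DESeq2).

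Ttc19, which clears fragments of the Rieske protein from complex III, averaged 88.5 ± 15.8 CPM in DIZE libraries and 64.9 ± 2.22 CPM in vehicle libraries without overlap (log2 fold change 0.45 ± 0.13, adjusted p = 0.128 in edgeR and 0.0455 in DESeq2). Coa6, which helps bring copper to complex IV, averaged 11.8 ± 0.601 CPM in DIZE libraries and 16.1 ± 1.94 CPM in vehicle libraries, also without overlap (log2 fold change -0.45 ± 0.13, edgeR adjusted p = 0.137). Atpaf1, a chaperone of the beta subunit of ATP synthase, had a log2 fold change of 0.22 ± 0.11 and overlapping groups.

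The 6 mitochondrially encoded subunits of complexes III to V were all below 0 on the log2 fold change scale, with a median of -0.15 and 0 called by edgeR or DESeq2 or at an unadjusted p under 0.05 in edgeR. Their summed level overlapped between the groups, with 29147 to 36594 CPM in DIZE libraries and 28838 to 36980 CPM in vehicle libraries. Most of it came from mt-Co1 (19774 CPM in DIZE libraries on average) and mt-Cytb (11978 CPM), with log2 fold changes of -0.02 and -0.10. Far lower in level, mt-Co3 averaged 310 ± 34.3 CPM in DIZE libraries and 369 ± 38.8 CPM in vehicle libraries (SD, n = 4 each). Its log2 fold change was -0.25 ± 0.12 (edgeR adjusted p = 0.285). Libraries were made from poly(A) RNA, which takes up mitochondrial transcripts unevenly. A list of 38 genes was taken by symbol (Ndufa, Ndufb, Ndufc, Ndufs and Ndufv) for nuclear subunits of complex I. It also holds Ndufa4, known as a subunit of complex IV, and its relative Ndufa4l2. Of the 38, 15 were above 0 and 23 below, with a median of -0.08 against -0.05 for the members. Of these 38 genes 0 were called by edgeR or DESeq2, and 0 had an unadjusted p under 0.05 in edgeR.

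Among 16 transcriptional regulators of respiratory genes, 8 were above 0 and 8 below, with a median log2 fold change of 0.01. Of these 16 edgeR called 0, with 5 at an unadjusted p under 0.05, against 19.4% of all tested genes. DESeq2 called 4 of the 16, against 4.44% of all tested genes. These were Esrra, Myc, Ppara and Esrrb, the last of which is named after its value was seen. The groups did not overlap for 4 of the 16 regulators, against 12.4% of all tested genes. Esrra, the oestrogen-related receptor alpha, had 185, 175, 180 and 161 CPM in DIZE libraries, against 109, 140, 134 and 124 CPM in vehicle libraries. The groups did not overlap, and the log2 fold change was 0.47 ± 0.11 (adjusted p = 0.0955 in edgeR and 0.00484 in DESeq2). Ppara, a fatty acid sensing receptor, averaged 15.4 ± 6.8 CPM in DIZE libraries and 37.4 ± 10.6 CPM in vehicle libraries without overlap (log2 fold change -1.29 ± 0.31, adjusted p = 0.0993 in edgeR and 0.00489 in DESeq2). Myc, a transcription factor of cell growth, averaged 11.7 ± 3.07 CPM in DIZE libraries and 6.02 ± 1.38 CPM in vehicle libraries without overlap (log2 fold change 0.97 ± 0.23, adjusted p = 0.0989 in edgeR and 0.0114 in DESeq2).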

How the data were processed

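Heart RNA from 4 DIZE and 4 vehicle libraries was analysed, grouped by the treatment in the labels. The authors deposited raw counts, whole reads per Ensembl gene. Per the labels' protocols the libraries came from a stranded poly(A) kit and were sequenced as read pairs. According to the submitters' processing notes the tools were HTSeq 0.6.1p1, STAR 2.7.3, R 4.1 and edgeR, and the build was mm10. The strand setting of the counting and the annotation release were not given in the sources used, so reads of overlapping genes on opposite strands may be shared. Columns were matched to libraries through the description in the labels.

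Symbols, transcript lengths (APPRIS principal transcript) and GC content came from GENCODE M21 on GRCm38, the assembly of mm10; 55227 of 55487 IDs matched. CPM, log2 fold changes and standard errors were computed here. The test was edgeR 4.0.16 (R 4.3.3, quasi-likelihood, robust, two-sided, TMM, filterByExpr with minimum count 10 and total 15, no covariate), with Benjamini-Hochberg adjustment over 13648 genes and a threshold of 0.05. Intervals are 95%, from the standard error and 6 residual degrees of freedom. Title form was compared with log2 of CPM plus 0.5. Total counts ranged from 7447664 to 10161623. No pair of libraries agreed within sampling noise; the most alike pair had a chi-square of 4.35 per degree of freedom. Members and lists were chosen with earlier results of these data known. Full values are given for the 3 members of each complex with the smallest unadjusted p, the most abundant members, Cycs and the isoform pairs, and up to 3 genes of each other list are named. Alternatives were RLE factors, library totals, other filters, DESeq2 1.42.0, limma-voom 3.58.1, title form and title number as blocks, a GC and length trend, and leaving out each library; the title forms taken apart and their interaction were added after the data were seen.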

Additional observations from a re-analysis of the deposited data

Results flagged for a closer look

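In 4 of 114 groups of 4 libraries examined (members and sums, 3.51%), 1 library stood far from the other 3, and chance gives about 5.7. All 4 were vehicle library 2, the library that also held liver markers. The values there were 1022 CPM for Cyc1 (837 to 867 CPM in the other vehicle libraries), 4908 CPM for Atp5a1 (4015 to 4092 CPM), 620 CPM for Atp5d (459 to 486 CPM) and 18215 CPM for the sum of complex V (15038 to 15533 CPM). What sets this library apart was not tested. Without it, the log2 fold change of Atp5a1 was 0.32 (edgeR adjusted p = 0.0953).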

How the results depend on the processing

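Under 17 settings 0 members were called, and 24 of 47 members kept the sign of their log2 fold change in all 17 (10 higher, 14 lower). The number of genes called, 5, was 0 with library totals, 386 without a filter on low counts, 606 with DESeq2, 9 with title form as a block and 13 with the GC and length trend removed. It ranged from 0 to 240 when each library was left out: 240 without vehicle library 2, 9 without vehicle library 1, 1 without vehicle library 3 and 0 without vehicle library 4 or any 1 DIZE library. With title number as a replicate block it was 0. Same-numbered libraries had correlations of deviations from -0.14 to 0.02, and differently numbered ones from -0.21 to 0.14. Number 4 stands in more than 1 title of each group, so these values cannot settle whether the numbers pair libraries. With db-titled libraries alone the median log2 fold change was -0.035 for complex II, -0.13 for III and -0.21 for IV. With the other libraries alone it was 0.21 for II, 0.099 for III, 0.024 for IV and 0.071 for all members. With the GC and length trend removed it was 0.12 for III, -0.010 for IV, 0.13 for V and 0.074 for all members. With title number as a replicate block the median of complex V was -0.036. Without Sdha the log2 ratio of the complex II sums was 0.026, and without Uqcrc1 that of complex III was 0.023. The median of all members ran from -0.097 to 0.0015 when each library was left out. Signs turned for genes near 0 and also for some farther from it. Over the 17 settings Atp5mpl, at -0.11 in the main fit, ran from -0.18 to 0.21. Cox7b, at -0.10, ran from -0.18 to 0.15, and Cox5a, at -0.12, from -0.26 to 0.040. With library totals Cox4i1 had -0.065 and Cox6a1 -0.069, under the replicate block -0.063 and -0.018, with the GC and length trend removed -0.074 and -0.079, and with db-titled libraries alone -0.058 and -0.025. With the GC and length trend removed, Cox6b1 had 0.074 and Cox7a2 0.085. With db-titled libraries alone, Cox6b2 had -0.041 and Cycs -0.0052. With the other libraries alone Sdhb had 0.040, Uqcr11 0.033, Cox6b1 0.050 and Cox7a2 0.060. With each library left out, Cox4i1 ranged from -0.048 to 0.062, Cox6a1 from -0.064 to 0.044, Cox7a2 from -0.12 to 0.054 and Cycs from -0.0093 to 0.13. The cause was not tested.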
